A study of Homo sapiens with 8 samples.

Results

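The genes described here are 8 histone genes whose messages are made outside S phase as well as in it: H1-10, H2AX, H2AZ1, H2AZ2, H2AJ, H3-3A, H3-3B and MACROH2A1. They were listed by gene symbol, and the rule that matched them to probes uses no measured value. The list itself was drawn up with earlier results of these data known. All 8 were found among the 19056 genes to which the array's probes could be matched. A549 cells, an established line from a human lung carcinoma, were exposed to EEDS (the ethanol extract of Descurainia sophia seeds) or to helveticoside, a cardiac glycoside present in those seeds. The EEDS series held 4 arrays, namely a vehicle control and 1.25, 5 and 20 μg/mL, and the helveticoside series held 4 arrays, namely its own vehicle control and 3.75, 15 and 60 nM. Each array was hybridized with 1 pool of RNA from triplicate cultures, so there was 1 array per dose and no replicate of a dose. The labels give 48 h of exposure, whereas the methods of the study give a shorter time for the arrays. The labels name no transgene, deletion or further treatment of the cells.

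Most core histone messages are made in S phase, when new DNA has to be packaged, and end in a stem-loop instead of a poly(A) tail. The replication-independent variants are instead encoded by genes with ordinary polyadenylated messages, are made through the whole cell cycle and replace the canonical histones at particular places. H3.3 marks active genes and is deposited by the HIRA and DAXX-ATRX chaperones, H2A.Z flanks transcription start sites and is exchanged by the SRCAP and p400-TIP60 complexes, H2A.X is phosphorylated around DNA double-strand breaks, and macroH2A is a feature of repressed chromatin such as the inactive X chromosome. H2AX is an intermediate case, since its message can end in a stem-loop or in a poly(A) tail.

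The promoters of these genes had features in common that the choice of the genes did not use. The 250 bases before each transcription start were read from RefSeq sequences of GRCh38.p14, in which the 8 genes have 12 start sites. The letters TATAAA were found in 4 of the 12 windows, those of H1-10, H2AZ1, H2AX and H3-3B, and began 31 bases before the start in the first 3 and 29 bases before it in H3-3B. Over all 35116 windows of the same length, 10.7% held TATAAA on either strand, and 2.17% held it on the gene's own strand at 25 to 35 bases before the start. The letters CCAAT or the reverse ATTGG were in 9 of the 12 windows, against 32.0% of all windows. They occurred in 7 of the 8 genes, for which no background share was computed. Some genes have several windows, and windows of H3-3A overlap in part, so the windows are not independent. H2AX, H2AZ2 and H3-3B each held 4 copies and H2AZ1 and H2AJ 3, where 0.874% of all windows held 4 or more and 2.93% held 3 or more. H1-10 was the gene without a copy. These letters were searched on both strands after the sequences had been read, along with TGACG or CGTCA (3 of 12 windows, 21.2% of all) and GGGCGG or CCGCCC (7 of 12 windows, 42.6% of all), and none of the copies in capitals overlap. A match is a description of the letters and not a binding site. The 4 windows with TATAAA follow, and H2AZ2 is added because it encodes nearly the same protein as H2AZ1 without that element. Capitals mark the elements named above other than GGGCGG, in either direction, and each sequence runs 5′ to 3′ on the gene's strand up to the base before the start.
H1-10 (chr3:129316287-129316536, minus strand): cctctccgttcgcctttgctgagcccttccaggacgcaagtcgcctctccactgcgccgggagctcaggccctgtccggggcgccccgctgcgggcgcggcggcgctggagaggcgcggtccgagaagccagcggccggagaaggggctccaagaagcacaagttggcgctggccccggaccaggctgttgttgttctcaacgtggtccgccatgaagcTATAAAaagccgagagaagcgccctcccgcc
H2AZ1 (chr4:99950276-99950525, minus strand): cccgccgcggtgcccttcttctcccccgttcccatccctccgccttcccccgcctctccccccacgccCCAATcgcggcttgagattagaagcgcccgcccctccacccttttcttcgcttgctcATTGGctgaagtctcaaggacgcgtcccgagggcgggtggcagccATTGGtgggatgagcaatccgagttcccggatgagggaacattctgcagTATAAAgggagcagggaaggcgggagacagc
H2AX (chr11:119095466-119095715, minus strand): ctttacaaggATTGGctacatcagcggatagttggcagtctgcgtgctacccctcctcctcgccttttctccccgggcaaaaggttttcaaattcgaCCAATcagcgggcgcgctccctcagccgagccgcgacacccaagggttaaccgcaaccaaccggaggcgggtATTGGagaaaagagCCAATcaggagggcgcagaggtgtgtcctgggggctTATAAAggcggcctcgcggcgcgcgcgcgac
H3-3B (chr17:75779780-75780029, minus strand): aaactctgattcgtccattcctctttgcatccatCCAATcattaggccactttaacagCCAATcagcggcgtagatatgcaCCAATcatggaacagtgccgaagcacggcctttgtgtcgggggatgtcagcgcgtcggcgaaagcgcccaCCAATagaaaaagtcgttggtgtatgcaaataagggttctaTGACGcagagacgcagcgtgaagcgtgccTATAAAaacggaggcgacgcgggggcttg
H2AZ2 (chr7:44848088-44848337, minus strand): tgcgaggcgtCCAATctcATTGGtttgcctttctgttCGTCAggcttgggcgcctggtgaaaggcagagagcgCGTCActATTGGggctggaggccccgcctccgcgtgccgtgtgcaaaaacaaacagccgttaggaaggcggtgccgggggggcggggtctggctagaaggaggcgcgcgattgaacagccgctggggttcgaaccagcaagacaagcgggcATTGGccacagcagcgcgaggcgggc

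Across both series, the signals of the variant genes were mostly above those of the vehicle control, H1-10 by far the most, and MACROH2A1 went the other way. At the top doses, 7 of the 8 genes were higher than on their own vehicle array with EEDS and 7 with helveticoside, as were 54.5% and 49.0% of all genes. These counts, and those that follow, take H3-3B by its brighter probe; its other probe was lower at both top doses, and with H3-3B set aside 6 of 7 genes were higher with each agent. The median log2 ratio of the 8 genes was 0.14, 0.35 and 0.52 at 1.25, 5 and 20 μg/mL EEDS and 0.08, 0.22 and 0.45 at 3.75, 15 and 60 nM helveticoside. Over all 19046 genes tested, the corresponding medians were 0.01, 0.01 and 0.02 with EEDS and 0.01, -0.04 and -0.00 with helveticoside. H1-10 was the one member more than 2-fold higher, at 5 and 20 μg/mL and at 15 and 60 nM, and none was more than 2-fold lower. The members more than 2-fold higher numbered 0, 1 and 1 of 8 at the rising EEDS doses, where 4.22%, 7.33% and 13.3% of all genes were. They numbered 0, 1 and 1 of 8 at the rising helveticoside doses, where 3.38%, 7.08% and 10.8% of all genes were. A share of 1 in 8 is near the background.

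**Figure D1:**
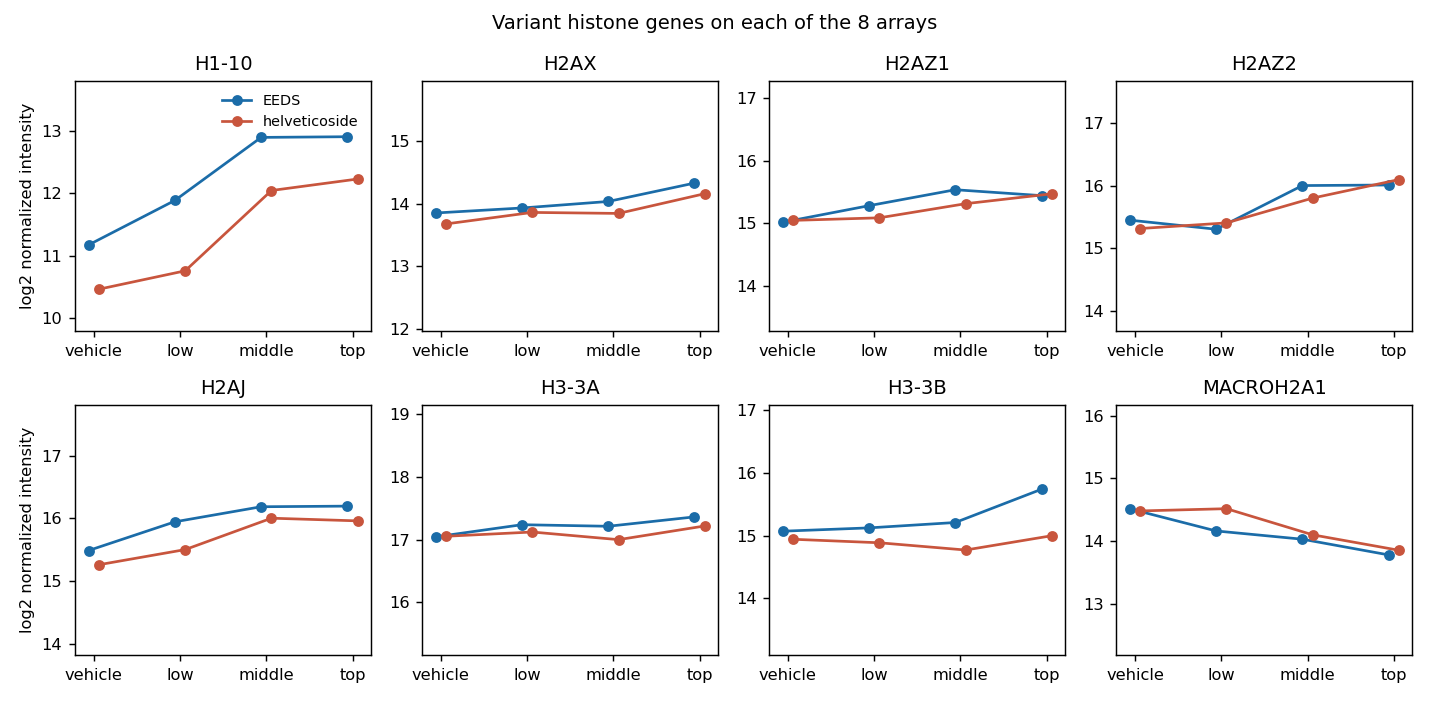
The log2 normalized intensity of each gene (vertical axis) is plotted on each array, with the vehicle control and the low, middle and top doses of EEDS (blue) or helveticoside (red) on the horizontal axis. Each point is 1 array, every panel spans the same log2 range, and H1-10 climbed from 11.17 to 12.90 with EEDS while MACROH2A1 went from 14.52 to 13.78.

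Because no dose was repeated, changes were tested as trends. A line on the dose step (vehicle, low, middle, top) was fitted to all 8 arrays with a slope for each agent, using limma with Benjamini-Hochberg adjustment over 19046 genes, and the scatter about the lines gave the error. With EEDS, 1 member rose and 1 fell at an adjusted p under 0.05, where 7.27% of all genes rose and 7.85% fell. With helveticoside, the count was again 1 rising and 1 falling, where 5.48% of all genes rose and 5.8% fell. In both series the rising gene was H1-10 and the falling gene was MACROH2A1. The slopes of 7 of the 8 genes were positive for each agent, or of 6 of the 7 without H3-3B, whose probes differ in sign, with a median of 0.18 log2 per step for EEDS and 0.15 for helveticoside, against 0.01 and -0.01 over all genes. Without adjustment, p in limma was under 0.05 for 7 of the 8 genes with EEDS and 6 with helveticoside, as it was for 6363 and 5677 of the 19046 genes. The 7 include H3-3B by its brighter probe, whereas its other probe had a slope of -0.32 with EEDS. In each series the arrays lay side by side in the order of the doses, so dose and position on the scan cannot be told apart.

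**Figure D2:**
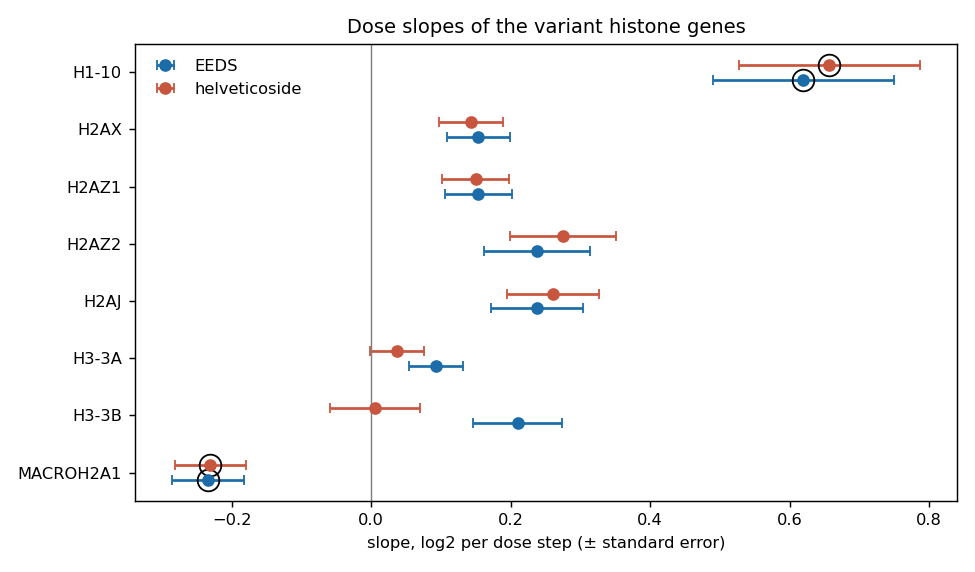
The slope of each gene in log2 per dose step is plotted with its standard error from limma for EEDS (blue) and helveticoside (red). Black rings mark adjusted p under 0.05, which only H1-10 (0.62 and 0.66) and MACROH2A1 (-0.23 for both agents) reached.

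H1-10 encodes a linker histone, H1x, which binds DNA between nucleosomes. Its log2 normalized intensity was 11.17 on the EEDS vehicle array and 11.88, 12.89 and 12.90 at 1.25, 5 and 20 μg/mL. It was 10.46 on the helveticoside vehicle array and 10.76, 12.04 and 12.23 at 3.75, 15 and 60 nM. Each treated array was above its own control, and the middle and top doses stood together, above the low dose, in both series. The step from the middle to the top dose was 0.01 with EEDS and 0.18 with helveticoside, both below the error of a log2 ratio of 0.20 that the scanner software's own spot errors give.

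At the top doses, H1-10 was 3.32-fold higher with EEDS and 3.39-fold higher with helveticoside. The slope was 0.62 log2 per step with EEDS (SE 0.13, limma with Benjamini-Hochberg, adjusted p = 0.0352, higher than the vehicle on 3 of 3 arrays). It was 0.66 with helveticoside (SE 0.13, limma, adjusted p = 0.0369, 3 of 3 arrays). The rise was also visible before any normalization between arrays, when the processed signal was 2040, 4540, 8880 and 12000 in the EEDS series and 1230, 1140, 3270 and 4720 in the helveticoside series, apart from the lowest helveticoside dose. Such signals also carry the brightness of the array. Every member had a higher one at 20 μg/mL than on the EEDS vehicle, H2AZ1 going from 26800 to 61500. With any 1 dose left out of each series, the slope was 0.57 to 0.86 for EEDS and 0.61 to 0.79 for helveticoside, and the adjusted p was 0.0953 to 0.193 and 0.134 to 0.275. In each of those fits 0 of all genes passed the threshold, so the call lost there is not particular to H1-10. With the linear dose in place of the dose step, fitted to all 8 arrays, H1-10 also lost its call for both agents. In that fit 788 of all genes still passed with helveticoside, so the call of H1-10 depends on how the dose is coded. The vehicle arrays themselves differed in H1-10, by -0.71 (helveticoside minus EEDS), the largest such difference among the 8 genes. The SD of this difference over all genes was 0.65, and 10.4% of genes differed more than 2-fold between the vehicle arrays. Set against the EEDS vehicle, the helveticoside arrays gave -0.41, 0.87 and 1.05, so the direction at 3.75 nM depends on the control.

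The genes whose 6 log2 ratios lay closest to those of H1-10, among the 11497 genes whose probes the scanner called well above background throughout, were UCN2, PRNP and AXL. The root mean square differences from H1-10 were 0.10, 0.10 and 0.15 log2. UCN2 encodes urocortin 2, PRNP the prion protein and AXL a receptor tyrosine kinase. At the top doses their log2 ratios were 1.60 and 1.83 (UCN2), 1.69 and 1.66 (PRNP) and 1.99 and 1.98 (AXL) with EEDS and helveticoside. The 3 were picked by likeness to H1-10 and give no test of it.

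H2AX encodes H2A.X, the histone whose phosphorylated tail marks DNA breaks. Its log2 normalized intensity was 13.85, 13.93, 14.04 and 14.33 from vehicle to 20 μg/mL EEDS and 13.68, 13.86, 13.85 and 14.16 from vehicle to 60 nM helveticoside. All 6 treated arrays were above their own control, but only the top doses were above it by more than the software error, at 0.48 and 0.48 log2. The slopes were 0.15 per step with EEDS (SE 0.05, limma, adjusted p = 0.0783, 3 of 3 arrays higher) and 0.14 with helveticoside (SE 0.05, limma, adjusted p = 0.106, 3 of 3), which did not pass the threshold.

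H2AZ1 and H2AZ2 encode H2A.Z.1 and H2A.Z.2, which differ at a few residues. H2AZ1 had a log2 normalized intensity of 15.02, 15.28, 15.54 and 15.44 in the EEDS series and 15.05, 15.09, 15.31 and 15.47 in the helveticoside series. H2AZ2 had 15.45, 15.31, 16.01 and 16.02 in the EEDS series and 15.32, 15.41, 15.81 and 16.10 in the helveticoside series. H2AZ1 was above the control on all 6 treated arrays and H2AZ2 on all but the lowest EEDS dose, where its log2 ratio was -0.14.

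At the top doses the log2 ratios were 0.43 and 0.42 for H2AZ1 and 0.56 and 0.78 for H2AZ2, with EEDS and helveticoside. The slopes of H2AZ1 were 0.15 with EEDS (limma, adjusted p = 0.0889, 3 of 3 arrays higher) and 0.15 with helveticoside (adjusted p = 0.107, 3 of 3). Those of H2AZ2 were 0.24 with EEDS (limma, adjusted p = 0.0923, 2 of 3 arrays higher) and 0.27 with helveticoside (adjusted p = 0.0774, 3 of 3). None of them passed the threshold, and of 14 alternative settings the H2AZ2 trend passed in 2 for EEDS and 5 for helveticoside and the H2AZ1 trend in 0 for either. The slope of the difference H2AZ1 minus H2AZ2, averaged over the series, was -0.10 log2 per step, with p = 0.111 in an exact permutation test (two-sided, 576 orders of the doses within the series, smallest possible p 0.00347) and 0.222 adjusted over the 2 pairs of genes tested.

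H2AJ encodes H2A.J, a variant known to accumulate in senescent cells. Its log2 normalized intensity was 15.49, 15.95, 16.19 and 16.20 in the EEDS series and 15.26, 15.50, 16.00 and 15.96 in the helveticoside series. All 6 treated arrays were above their own control by more than the software error of 0.20, and the middle and top doses were level with each other. That error does not cover differences between cultures or arrays. The vehicle arrays differed by -0.23 (helveticoside minus EEDS), and against the EEDS vehicle the log2 ratio at 3.75 nM was 0.02 in place of 0.24. The ratio at the top dose was 1.64-fold with EEDS and 1.63-fold with helveticoside. The slopes were 0.24 per step (SE 0.07, limma, adjusted p = 0.0671, 3 of 3 arrays higher) and 0.26 (SE 0.07, limma, adjusted p = 0.0635, 3 of 3). They missed the threshold, and passed it in 5 of 14 alternative settings for each agent, with adjusted p between 0.0302 and 0.458 for EEDS and between 0.0272 and 0.399 for helveticoside.

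H3-3A and H3-3B encode the same protein, H3.3, from separate genes. H3-3A had a log2 normalized intensity of 17.04, 17.24, 17.21 and 17.36 in the EEDS series and 17.05, 17.12, 17.00 and 17.22 in the helveticoside series. H3-3B had 15.07, 15.12, 15.21 and 15.74 in the EEDS series and 14.94, 14.89, 14.77 and 15.00 in the helveticoside series. Only the top EEDS dose stood above the vehicle by more than the software error, by 0.32 for H3-3A and 0.67 for H3-3B.

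For H3-3A, the slopes were 0.09 with EEDS (SE 0.04, limma, adjusted p = 0.160, 3 of 3 arrays higher) and 0.04 with helveticoside (SE 0.04, adjusted p = 0.631, 2 of 3). For H3-3B, they were 0.21 with EEDS (SE 0.06, limma, adjusted p = 0.0848, 3 of 3 arrays higher) and 0.01 with helveticoside (SE 0.06, adjusted p = 0.995, 1 of 3 higher). The slope of H3-3A minus H3-3B averaged -0.04 log2 per step (exact permutation test, two-sided, p = 0.510, adjusted p = 0.510). With the mean of all probes of each gene this difference turned to 0.19 with p = 0.00347, the smallest that the exact permutation test can give (0.00694 adjusted over the 2 pairs), since that mean includes a second H3-3B probe with other values.

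The second H3-3B probe, which carries the same RefSeq transcript, gave log2 ratios of -0.05, -0.46 and -0.93 at the rising EEDS doses and 0.19, -0.42 and -1.07 at the rising helveticoside doses. It was well above background on all 8 arrays, so it pointed down at the middle and top doses where the brighter probe gave 0.14 and 0.67 with EEDS and -0.17 and 0.06 with helveticoside. Among 2468 genes with at least 2 probes well above background, 23.3% had probes of opposite sign at 20 μg/mL EEDS and 23.9% at 60 nM helveticoside. The gap between the H3-3B probes was 1.60 and 1.12 log2 at these doses, which 6.24% and 10.1% of those genes equalled or passed. The positions of the probes on the transcript were not analysed here, so no direction is given for H3-3B, and whether either probe also takes up H3-3A or pseudogene transcripts was not tested. The 3 probes of H3-3A lay between 0.25 and 0.32 at 20 μg/mL and between 0.17 and 0.31 at 60 nM.

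Dimmer second probes of H2AJ and H2AZ2 went the same way as the brighter ones at the top doses. That of H2AJ gave 0.23, 0.90 and 1.20 log2 with EEDS. In the helveticoside series it was not well above background on the vehicle array, and was at least 1.17-fold higher at 15 nM and at least 1.33-fold higher at 60 nM. That of H2AZ2, which carries another transcript of the gene, gave 0.51, 0.58 and 1.03 with EEDS and was at least 1.61-fold higher at 60 nM. These bounds set the treated signal against the higher of the probe's own signal and the lowest signal well above background on the vehicle array.

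**Figure D3:**
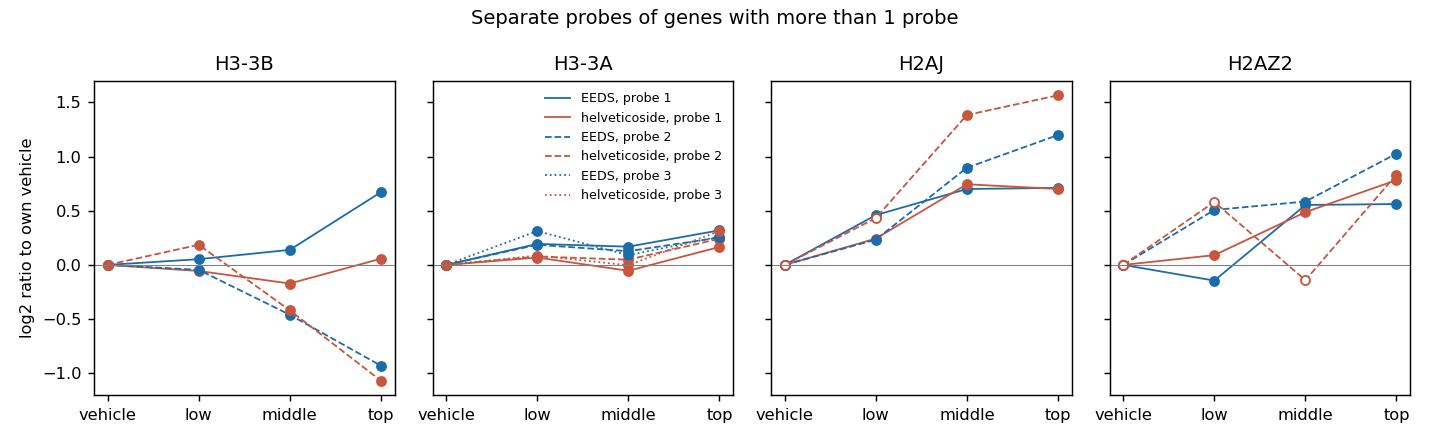
Log2 ratios to the own vehicle control are plotted by dose for each probe of the 4 genes with more than 1 probe (blue, EEDS; red, helveticoside), with open points where the probe was not well above background. The H3-3B probes part, to 0.67 and -0.93 at the top EEDS dose, while the 3 H3-3A probes stay together.

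MACROH2A1 encodes macroH2A1, an H2A with a large globular macro domain. Its log2 normalized intensity was 14.52, 14.16, 14.03 and 13.78 in the EEDS series and 14.48, 14.52, 14.10 and 13.85 in the helveticoside series. It was below the control on every EEDS array and on the middle and top helveticoside arrays, while 3.75 nM was level with the control at a log2 ratio of 0.04. At the top doses it was 1.67-fold lower with EEDS and 1.55-fold lower with helveticoside.

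The slope of MACROH2A1 was -0.23 per step with EEDS (SE 0.05, limma, adjusted p = 0.0392, lower on 3 of 3 arrays) and -0.23 with helveticoside (SE 0.05, limma, adjusted p = 0.0478, lower on 2 of 3). The slope was negative for both agents in 14 of 14 alternatives, but its size depended on the normalization. The alternatives share the gene's 1 probe and mostly a quantile normalization, so they are not independent. The processed signal before normalization between arrays was 19600, 20300, 19800 and 21500 in the EEDS series, with no treated array below the control, and 18300, 16100, 14600 and 15400 in the helveticoside series. Over the alternatives, the adjusted p lay between 0.0194 and 0.281 for EEDS and between 0.0340 and 0.396 for helveticoside, and it passed the threshold in 8 and 6 of 14. With any 1 dose left out of each series, where 0 of all genes passed, it was 0.0813 to 0.281 for EEDS and 0.115 to 0.396 for helveticoside. The genes with the closest 6 ratios were CNOT11, a subunit of the CCR4-NOT deadenylase complex, HINT2 and GDI2, a Rab GDP dissociation inhibitor, with root mean square differences of 0.04, 0.07 and 0.08 log2.

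The size of many of these ratios depended on the scaling of the arrays. When each array was scaled to its 75th percentile in place of quantile normalization, the median log2 ratio of all genes moved to -0.20, -0.21 and -0.36 at the rising EEDS doses and to 0.14, -0.12 and -0.18 at the rising helveticoside doses. The ratios at the top doses of EEDS and helveticoside were then 1.93 and 1.89 for H1-10 and 0.74 and 1.04 for H2AJ. They were 0.69 and 0.88 for H2AX, 0.63 and 1.12 for H2AZ2 and 0.57 and 0.80 for H2AZ1. Relative to the median of all genes, H1-10 was at 2.29 and 2.07, H2AJ at 1.10 and 1.22 and H2AX at 1.05 and 1.06. H2AZ2 was at 0.98 and 1.30 and H2AZ1 at 0.93 and 0.98. MACROH2A1, whose ratios themselves were -0.49 and -0.30, was at -0.13 and -0.12 relative to that median. Its adjusted p became 0.268 and 0.327 (limma with Benjamini-Hochberg). The trend of H2AX passed the threshold under this scaling, with adjusted p = 0.0401 for EEDS and 0.0345 for helveticoside (slopes positive, 3 of 3 arrays higher in each). The ratios of H3-3A at 15 nM and of H3-3B at 3.75 and 15 nM were -0.05, -0.06 and -0.17 under quantile normalization. Under this scaling they were 0.25, 0.19 and 0.20, or 0.37, 0.04 and 0.32 relative to the median of all genes.

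**Figure D4:**
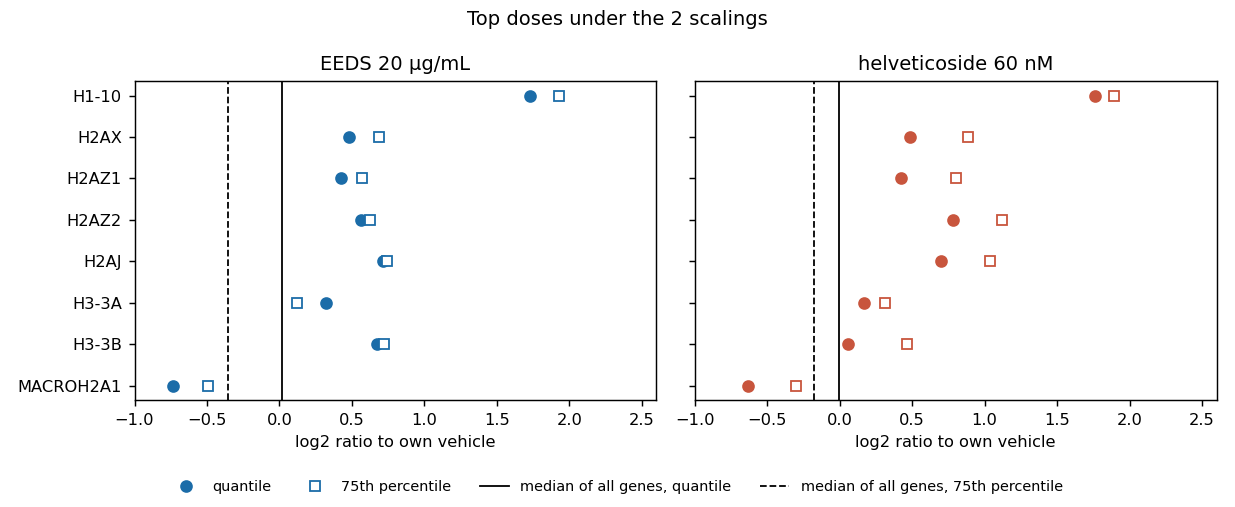
Log2 ratios of the top doses to their own vehicle control are plotted for each gene under quantile normalization (filled circles) and under scaling to the 75th percentile (open squares), with the median of all genes under each as a solid and a dashed line. H1-10 stands far to the right under both, whereas MACROH2A1 lies near the dashed line, 0.13 and 0.12 below it.

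Helveticoside and EEDS were compared directly by the difference of their slopes, helveticoside minus EEDS, per dose step. The doses are in different units and the steps are matched by rank, so the comparison sets one series against the other and not equal exposures. No member passed (limma with Benjamini-Hochberg, adjusted p = 1 for all 8), and neither did any gene, so the background was 0.0% of 19046 genes, of which 525 had an unadjusted p under 0.05. The 95% interval of the difference was -0.42 to 0.50 for H1-10 and -0.18 to 0.19 for MACROH2A1. It was -0.17 to 0.15 for H2AX, -0.17 to 0.17 for H2AZ1, -0.23 to 0.31 for H2AZ2 and -0.21 to 0.26 for H2AJ. H3-3A had an interval of -0.19 to 0.08. For the brighter probe of H3-3B the difference was -0.20 (SE 0.09, 95% interval -0.43 to 0.02, unadjusted p = 0.0701 in limma), whereas for its other probe it was -0.06, between least-squares slopes of -0.38 and -0.32, so the gap depends on the probe.

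Variant histone genes outside the 8 were also on the array. CENPA, the centromeric H3, had ratios of 0.54 and 0.22 at the top doses and MACROH2A2, the paralog of MACROH2A1, 0.14 and 0.62, without a trend that passed (adjusted p of 0.448 and 0.949 for CENPA and 0.530 and 0.213 for MACROH2A2, 3 of 3 arrays above the vehicle in all but MACROH2A2 with EEDS, 2 of 3).

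Of the 65 replication-dependent histone genes on the array, 9 rose and 0 fell with EEDS, where 7.27% of all genes rose and 7.85% fell. With helveticoside 4 rose and 0 fell, where 5.48% of all genes rose and 5.8% fell. The rising share was above that of all genes with EEDS and near it with helveticoside. Their median log2 ratio was 0.64 at 20 μg/mL and 0.35 at 60 nM, beside 0.52 and 0.45 for the 8 variants. H2AC19 rose with both agents, to 1.46 and 1.22 (limma, adjusted p = 0.0250 and 0.0308, 3 of 3 arrays higher in each), and H2BC12 had 1.09 and 1.22 (adjusted p = 0.0604 and 0.0483, 3 of 3). These genes are near-identical copies of each other, so probes may share transcripts and the counts are uncertain. The labelling kit primes from poly(A) tails, so what these probes report is the polyadenylated part of such messages, and its share was not tested.

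The factors that handle the variants did not move as a block. Of the 6 genes for H3.3 deposition on the array, 0 passed in either direction with either agent. ATRX had log2 ratios of 0.54 and -0.07 at the top doses, HIRA 0.07 and -0.75 and DAXX -0.83 and -0.81. Of the 20 genes of H2A.Z exchange, 2 rose and 1 fell with each agent. Over all genes, 7.27% rose and 7.85% fell with EEDS, and 5.48% rose and 5.8% fell with helveticoside. Counts this small are not read as a result about the lists.

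The rising genes of H2A.Z exchange were EPC1 and KAT5 and the falling gene was DMAP1, all subunits of the TIP60 complex. EPC1 had log2 ratios of 1.46 and 0.96 at the top doses (limma, adjusted p = 0.0190 and 0.0498, 3 of 3 arrays higher in each). KAT5, the acetyltransferase TIP60, had 0.86 and 0.89 (adjusted p = 0.0279 and 0.0279, 3 of 3) and DMAP1 -1.44 and -2.11 (adjusted p = 0.0462 and 0.0243, lower on 3 of 3).

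Of the 12 genes of H2AX signalling, 1 rose and 2 fell with EEDS and 0 rose and 1 fell with helveticoside. The rising gene was PPP4R2, a regulatory subunit of a phosphatase that removes the H2A.X phosphate, with log2 ratios of 1.04 and 0.58 (limma, adjusted p = 0.0187 and 0.0563, 3 of 3 arrays higher in each). Of the 15 general histone chaperones on the array, 0 rose and 1 fell with each agent, namely RBBP7 at -1.07 and -0.80 (limma, adjusted p = 0.0203 and 0.0356, lower on 3 of 3). Of the 10 genes for processing of replication-dependent histone messages, 0 rose and 1 fell with each agent. That gene was CPSF3, the nuclease that cuts the messages, at -1.46 and -1.27 (limma, adjusted p = 0.0145 and 0.0204, lower on 3 of 3). The shares of all genes were 7.27% rising and 7.85% falling with EEDS and 5.48% and 5.8% with helveticoside. The counts of these short lists are too small to read against them.

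**Figure D5:**
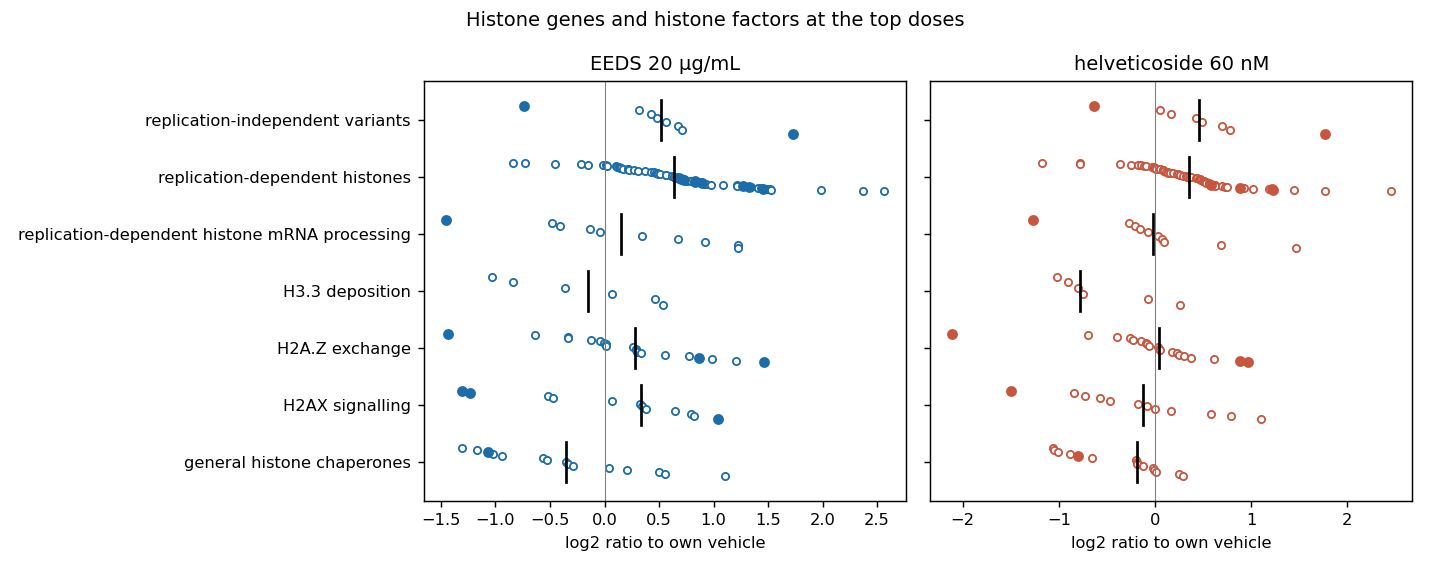
Log2 ratios to the own vehicle control at 20 μg/mL EEDS (left) and 60 nM helveticoside (right) are plotted for each gene of the lists, with filled points for adjusted p under 0.05 in the dose trend and black bars for list medians. The medians of the 8 variants, 0.52 and 0.45, lie to the right of 0, and 1 filled point on each side marks MACROH2A1 and H1-10.

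The arrays carried 43118 probe spots each, with a median signal of 182 to 278 over a local background of 27 to 34, and 54.5% to 64.9% of probes were well above background. The probe standing for each of the 8 genes was well above background and not saturated on all 8 arrays, and the software error of its log2 ratios was 0.20 to 0.21. The epithelial and A549 markers KRT8, KRT18, KRT19, EPCAM, AKR1B10, AKR1C1, ALDH1A1 and NQO1 were well above background on all 8 arrays. Among markers of other cell types, CD3E, PECAM1, VWF and COL1A2 were so on 0 arrays, and PTPRC and DES on 8. Of the 8 A549 markers, 3 fell with EEDS and 2 with helveticoside, where 7.85% and 5.8% of all genes fell. Of these, KRT19 fell by the most (log2 ratio -1.90 and -1.72 at the top doses, limma, adjusted p = 0.0302 and 0.0442, lower on 3 of 3 and 2 of 3 arrays). The part of such a loss in the ratios of the variant genes was not tested. The RNA came from whole cultures, so fewer cells with a message and less message per cell cannot be told apart.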

How the data were processed

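Gene expression in A549 cells was measured on 8 one-colour Agilent arrays, 1 per dose, each with RNA pooled from triplicate experiments. The authors deposited the scanner software's output for each spot: intensity values (the median signal, the local background and a background-subtracted processed signal with its error) and flags for outlier, saturated and well-above-background spots. A deposited table with the authors' normalized intensity values served as an alternative. No build or aligner applies to the probes.

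After removal of control and outlier spots, spots of a probe were averaged on the processed signal (34105 of 34127 probes kept), and the 8 arrays were quantile-normalized. Values of probes whose median signal was under 1.4 times the local background were raised to the lowest detected signal of the array, and log2 was taken. Through their RefSeq accessions, 24812 probes were matched to 19056 genes of GRCh38.p14, used for names; the brightest probe stood for each of the 4797 genes with several. Ratios are those of a treated array to its own series' vehicle array. With 1 array per dose, no p is given for a single dose; the scanner software's spot errors were combined into the error of a ratio and cover 1 hybridization only. Dose trends were fitted over 19046 genes in R 4.3.3 with limma 3.58.1 and statmod 1.5.0 (eBayes with trend and robust on) with an intercept and a slope on the dose step per series and 4 residual degrees of freedom, with Benjamini-Hochberg adjustment and a threshold of 0.05. The fit was tested on simulated data. P-values measure the spread of these arrays about a line. Pairs of genes were compared by exact permutation of the doses within series. The remaining steps used pandas 2.3.3, scipy 1.17.1 and numpy 2.4.6 under Python 3.11.15.

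The 8 genes, the lists around them and the tests were chosen with earlier results of these data known. Named were the 8 genes, up to 2 genes per list with the largest called slope in each direction, and the 3 genes nearest to each member with a called trend; CENPA, MACROH2A2, HIRA, ATRX and DAXX were named after their values were seen, and KRT18 with the other markers. Some members of the lists and marker sets are not reported here. Alternatives tried were normexp (offset 50), the unsubtracted scanned signal, 75th percentile scaling, normalization within series, the deposited values, no filter, the well-above-background filter, the mean of all probes, the other vehicle control, each agent alone, each dose left out, the linear dose, and eBayes without trend and robust estimation.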

Additional observations from a re-analysis of the deposited data

How the results depend on the processing

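No paired analysis was possible because each group had 1 array and the labels carry no replicate numbers. Of the 48 log2 ratios (8 genes, 6 doses), all 48 moved by less than their software error with the signal as scanned, normexp, normalization within each series, the deposited values, no filter and the well-above-background filter. The 2 filter settings could not move them, because the probe standing for each gene was well above background on all 8 arrays. With scaling to the 75th percentile 26 moved further, with the mean of all probes 9 moved and 1 reversed, and with the other vehicle control 11 moved and 1 reversed. Counted as reversed were ratios above their software error that changed sign, namely H3-3B at 20 μg/mL EEDS (-0.13, mean of all probes) and H1-10 at 3.75 nM helveticoside (-0.41, other vehicle control). Including smaller ratios, 5 changed sign with the mean of all probes (among them H3-3B at 60 nM, to -0.51), 4 with the other vehicle control, 3 with the 75th percentile, and 1 each, MACROH2A1 at 3.75 nM, with the signal as scanned, normexp and the deposited values. Members more than 2-fold higher numbered 1 at 1.25 μg/mL and 0 at 15 nM with the other vehicle control, 2 at 15 nM and 3 at 60 nM with the 75th percentile, and 2 at each of these doses with the mean of all probes. The slope of H3-3A minus H3-3B had an exact permutation p of 0.0451 with the 75th percentile, which did not pass once adjusted over the 2 pairs (0.0903), and reversed with the mean of all probes (p = 0.00347, adjusted 0.00694).

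The adjusted p of the trends (limma) missed the threshold wherever fewer arrays were fitted, with fewer residual degrees of freedom. Those of H1-10 and MACROH2A1 also missed it with the linear dose, which was fitted to all 8 arrays. H1-10 had, for EEDS, 0.120 with the agent alone, 0.115 without the lowest, 0.0953 without the middle and 0.193 without the top dose, and 0.325 with the linear dose; for helveticoside these were 0.0980, 0.142, 0.134, 0.275 and 0.274. MACROH2A1 had 0.118, 0.0813, 0.145, 0.281 and 0.152 for EEDS and 0.131, 0.115, 0.179, 0.396 and 0.148 for helveticoside, 0.268 and 0.327 with the 75th percentile, and for helveticoside 0.0521 with the deposited values and 0.0597 without trend and robust estimation. Of all genes, 2879 had a called trend with EEDS and 2147 with helveticoside. These counts were 0 for both with the agent alone and without the lowest, middle or top dose, while the deposited values gave 4600 for EEDS and the linear dose 788 for helveticoside. Apart from the fewer arrays, the cause of these shifts was not tested. Precision is limited by the 8 arrays.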
